A study of Mus musculus with 6 samples.

Results

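The retinoblastoma pocket proteins and the core of the DREAM complex are encoded here by 10 genes, Rb1, Rbl1, Rbl2, Lin9, Lin37, Lin52, Lin54, Rbbp4, Tfdp1 and Tfdp2. They were taken by gene symbol, and all 10 were found among the 24421 genes of the deposited count table and passed the filter on low counts. RNA sequencing covered 6 libraries of primary neural stem cells, cultured from the subventricular zone of wild-type C57BL/6 mice at postnatal day 60. This zone lines the lateral ventricles and keeps making neurons in adult mice. All cells grew with FGF2 and EGF, each at 20 ng/ml, and their medium was changed after 24 h. In the PluriSIn#2 group, 3 libraries came from cells given 20 µM PluriSIn#2, which the series describes as a topoisomerase IIA inhibitor, for 3 days. In the DMSO group, 3 libraries came from cells given DMSO as a control for the same time. The treatment field of PluriSIn#2 replicates 2 and 3 carries another compound number than their titles, so libraries were grouped by title, and the main counts below are also given with PluriSIn#2 replicate 1 alone.

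Pocket proteins hold the cell cycle before DNA replication starts. RB1 binds activating E2F factors and blocks them until cyclin-dependent kinases phosphorylate it. Its relatives p107 (Rbl1) and p130 (Rbl2) bind the repressive factors E2F4 or E2F5 with a DP partner (Tfdp1 or Tfdp2) and the MuvB core of LIN9, LIN37, LIN52, LIN54 and RBBP4, and this DREAM complex keeps cell cycle genes silent in resting cells. In dividing cells MuvB instead binds B-MYB (Mybl2) and FOXM1 and activates mitotic genes, so the core serves both states.

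The letters that E2F factors are known to bind were searched for in the promoters of these genes. RefSeq promoters of build GRCm38.p6, each reaching from 250 bases before a start site to 50 bases after it, were matched by symbol for 8 of the 10 genes, all except Rb1 and Lin9. The E2F letters were TTTCCCGC, TTTCGCGC, TTTGCCGC and TTTGGCGC on either strand, and 3 of the 8 genes held a match, Rbl1, Tfdp1 and Lin52. Over all 32851 RefSeq promoters of this length, 2.26% held one, and 2.60% of 27025 genes held one at any of their start sites. These 3 promoters are shown because they carry the same kind of letters while their transcripts, as given below, went opposite ways. Capitals mark the E2F letters.
Rbl1, chr2:157204485-157204784, minus strand: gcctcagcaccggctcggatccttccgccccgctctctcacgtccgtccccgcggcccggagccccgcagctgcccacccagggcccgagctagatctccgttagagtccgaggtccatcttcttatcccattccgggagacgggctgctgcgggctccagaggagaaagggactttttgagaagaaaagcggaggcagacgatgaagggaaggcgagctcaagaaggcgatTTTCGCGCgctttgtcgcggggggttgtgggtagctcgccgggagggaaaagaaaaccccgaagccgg
Tfdp1, chr8:13338501-13338800, plus strand: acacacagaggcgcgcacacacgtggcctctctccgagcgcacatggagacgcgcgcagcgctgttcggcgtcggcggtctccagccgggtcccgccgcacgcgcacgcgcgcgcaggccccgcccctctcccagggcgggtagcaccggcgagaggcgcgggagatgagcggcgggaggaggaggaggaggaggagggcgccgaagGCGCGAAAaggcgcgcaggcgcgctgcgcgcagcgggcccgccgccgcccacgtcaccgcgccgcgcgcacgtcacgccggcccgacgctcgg
Lin52, chr12:84451258-84451557, plus strand: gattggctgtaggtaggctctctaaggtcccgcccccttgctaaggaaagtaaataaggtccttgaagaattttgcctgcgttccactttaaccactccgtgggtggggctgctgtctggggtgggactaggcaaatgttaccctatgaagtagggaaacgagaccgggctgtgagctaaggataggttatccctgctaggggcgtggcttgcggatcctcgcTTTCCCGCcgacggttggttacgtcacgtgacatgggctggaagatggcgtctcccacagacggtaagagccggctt
The match began 18 bases before the start site in Rbl1, 27 bases before it in Lin52 and 43 bases before it in Tfdp1, where it was read on the other strand as GCGCGAAA. From another RefSeq start site of Tfdp1, the same match began 96 bases before. A match describes letters only and does not show binding.

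The CHR letters TTTGAA and TTTAAA, the element to which LIN54 binds, were searched for on both strands in the same promoters. They were found for 4 of the 8 genes, Lin37, Lin54, Rbl2 and Tfdp2, none of which held E2F letters. Such short letters are common, and 27.6% of all promoters of this length and 30.6% of 27025 genes held one. For comparison, among 21 matched early DREAM targets, genes of DNA replication and repair, 11 held E2F letters and 5 held CHR letters. Of 21 matched late targets, genes of mitosis, 1 held E2F letters and 18 held CHR letters.

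Libraries held between 16670962 and 17827158 counts in PluriSIn#2 and between 18186070 and 19241869 counts in DMSO. Levels are given as CPM, the reads of a gene relative to all counted reads of its library after TMM scaling, and differences were tested by edgeR's quasi-likelihood method, with p-values adjusted after Benjamini and Hochberg for 14417 genes and called below 0.05. Of these genes 82.6% were called, 41.7% higher and 40.9% lower, so that a call alone does not set a gene apart here. Top2a, the gene of the targeted enzyme, averaged 6.01 ± 1.29 CPM in PluriSIn#2 and 878 ± 21.2 CPM in DMSO (SD, n = 3 each). It is also the most abundant of the 25 late DREAM targets described below, all of which were lower. Of 12 neural stem cell markers, 4 were higher and 8 lower, with log2 fold changes between -2.33 and 2.84. None was at 0 in either group. Their summed levels were between 7775 and 7815 CPM in PluriSIn#2 and between 8386 and 8487 CPM in DMSO. Vim, the most abundant and 1 of the higher ones, averaged 3061 CPM in PluriSIn#2 and 2669 CPM in DMSO. Without Vim, the other 11 summed to between 4724 and 4745 CPM in PluriSIn#2 and between 5709 and 5793 CPM in DMSO. Nothing in the labels says that replicates were separate cultures, so p-values measure the spread between these libraries, which may be technical.

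Transcripts listed as markers of other cell types differed between the groups as well, beside 41.7% of all genes tested higher and 40.9% lower. The 14 microglia and macrophage markers summed to between 162 and 171 CPM in PluriSIn#2 and between 9.07 and 9.34 CPM in DMSO, where Trem2 had no read, and 11 of the 12 tested were higher. Without Lyz2, the other 13 summed to between 79.7 and 87.7 CPM in PluriSIn#2 and between 7.47 and 8.33 CPM in DMSO. The 11 fibroblast and mural markers summed to between 324 and 325 CPM in PluriSIn#2 and between 180.4 and 188 CPM in DMSO, with 8 of 10 tested higher and 1 lower. The lower one was Cspg4, at 86.2 CPM in PluriSIn#2 and 149 CPM in DMSO. Without Cspg4, the other 10 summed to between 236 and 241 CPM in PluriSIn#2 and between 34.2 and 35.8 CPM in DMSO. The 10 endothelial markers summed to between 34.4 and 38.6 CPM in PluriSIn#2 and between 6.14 and 6.75 CPM in DMSO, with 7 of 8 tested higher. Without Cdh5, the other 9 summed to between 17.6 and 20.3 CPM in PluriSIn#2 and between 5.975 and 6.64 CPM in DMSO. The 10 oligodendrocyte markers summed to between 2418 and 2482 CPM in PluriSIn#2 and between 2866 and 2990 CPM in DMSO, with 6 of 7 tested lower. Without Olig1, the other 9 summed to between 788 and 796 CPM in PluriSIn#2 and between 1174 and 1221 CPM in DMSO. The 11 neuronal markers summed to between 536 and 540.2 CPM in PluriSIn#2 and between 975 and 1028 CPM in DMSO, with 7 higher and 1 lower. The lower one was Map2, at 383 CPM in PluriSIn#2 and 892 CPM in DMSO (log2 fold change -1.22), and the other 10 summed to between 154 and 155 CPM in PluriSIn#2 and between 104 and 115 CPM in DMSO. The most abundant members of these 5 lists over all 6 libraries were Lyz2, Cspg4, Cdh5, Olig1 and Map2. The part of these marker transcripts in the results below was not tested. In bulk RNA a changed number of cells of a type and changed RNA per cell cannot be told apart. Nor can the source of these transcripts be told, since the neural stem cells themselves may hold them.

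In PluriSIn#2, 3 of the 10 genes were higher than in DMSO (Rb1, Rbl2 and Lin52), 6 were lower (Rbl1, Lin9, Lin54, Rbbp4, Tfdp1 and Tfdp2) and Lin37 was not called. The share called, 9 of 10, is near the 82.6% of all genes. At least 2-fold lower were 4 of the 10 (Rbl1, Lin9, Lin54 and Tfdp1), beside 11.7% of all genes tested. The groups did not overlap for 9 of the 10, beside 82.7% of all genes. The median log2 fold change of the 10 was -0.59, and that of all genes was 0.014. With PluriSIn#2 replicate 1 alone against DMSO, 3 were called higher and 6 lower, but that fit takes its spread from the 3 DMSO libraries and assumes that the lone treated library varies like them, so it is no independent check of the labels.

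**Figure D1:**
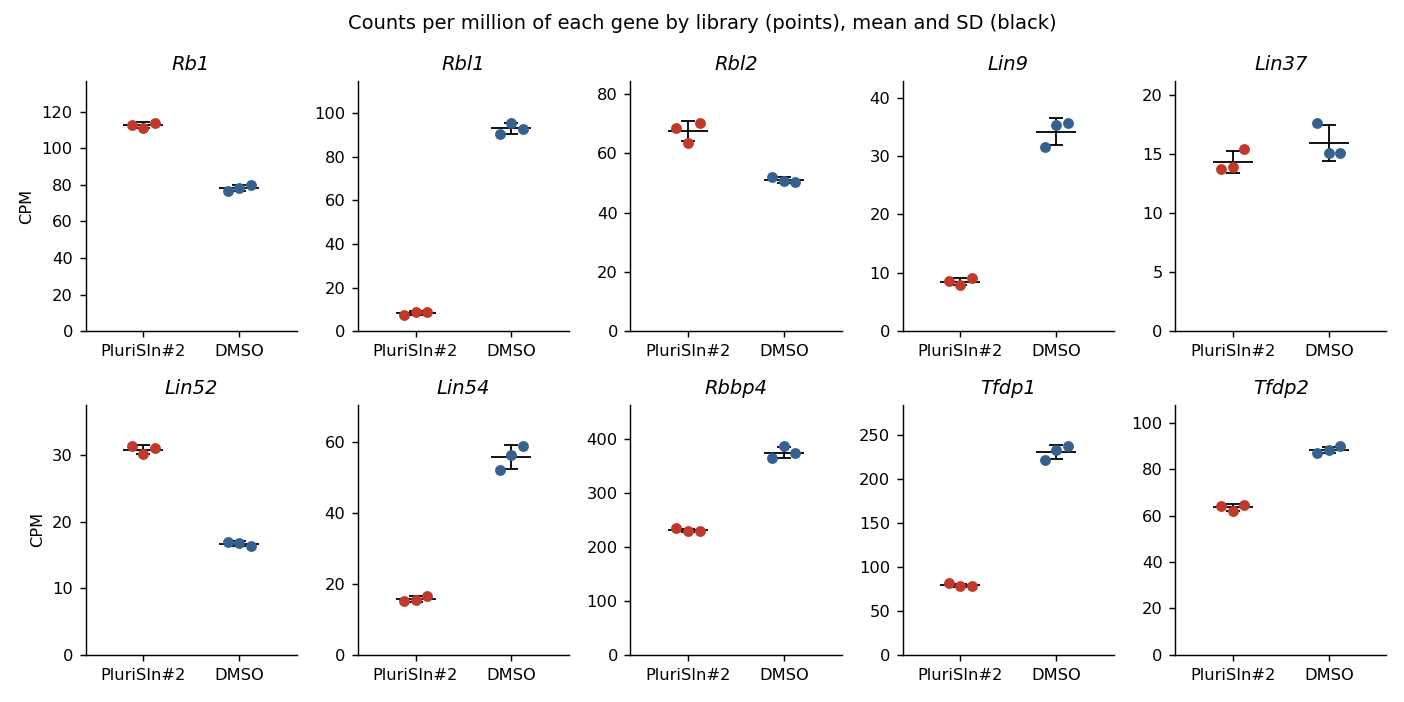
CPM (vertical axis, from 0) of each of the 10 genes in the 3 PluriSIn#2 libraries (left in each panel, red) and the 3 DMSO libraries (right, blue), with the mean and SD in black. The groups are apart in every panel but that of Lin37, and Rbl1 stands at 7.50 to 8.96 CPM in PluriSIn#2 and at 90.7 to 95.7 CPM in DMSO.

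Among the pocket proteins, the p107 gene was the one that fell, while the RB1 and p130 genes rose moderately. Rbl1, at 157145893 to 157204534 of chromosome 2 (minus strand, with gene positions from GENCODE M21 on GRCm38, also called mm10), was at 7.50, 8.89 and 8.96 CPM in the PluriSIn#2 libraries and at 90.7, 95.7 and 92.8 CPM in the DMSO libraries. The highest treated library was far below the lowest DMSO library, and Rbl1 was 11.01-fold lower in PluriSIn#2 (log2 fold change -3.46, SE 0.0645, edgeR adjusted p = 5.61e-65). A share of 1.61% of genes tested had a lower log2 fold change than Rbl1. The treated values rest on 133, 162 and 153 reads.

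Rb1, the retinoblastoma tumour suppressor gene, lies at 73183673 to 73325822 of chromosome 14 (minus strand). It was at 113, 111 and 114 CPM in PluriSIn#2 and at 76.5, 78.1 and 79.8 CPM in DMSO. All treated libraries were above all DMSO libraries, by a factor of 1.44 between the means (log2 fold change 0.53, SE 0.0381, edgeR adjusted p = 9.51e-23). Rbl2, whose product p130 is the pocket protein most typical of DREAM in resting cells, lies at 91070057 to 91123844 of chromosome 8 (plus strand). Its levels were 68.6, 63.7 and 70.4 CPM in PluriSIn#2 and 52.0, 50.8 and 50.3 CPM in DMSO. Again the groups did not overlap, with a factor of 1.32 between the means (log2 fold change 0.40, SE 0.0473, edgeR adjusted p = 1.19e-12). Both changes were common in size, since 72.3% of genes tested had a lower log2 fold change than Rb1 and 67.9% a lower one than Rbl2.

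The rise of Rbl2 has a limit of annotation. Its exons share 693 bases, 9.17% of their length, with Aktip on the opposite strand, a gene that itself rose (107 ± 2.29 CPM in PluriSIn#2 and 48.3 ± 2.62 CPM in DMSO, log2 fold change 1.15). Counting may have mixed both genes in these bases, with a strand setting not given in the sources used here, and the part of Aktip in the Rbl2 values was not tested. The exons of Rb1 share 408 bases with Lpar6 and 488 bases with Rcbtb2, both on the opposite strand and not called (log2 fold changes 0.11 and 0.07).

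The make-up of the pocket protein transcripts was compared per length, with FPKM, the authors' values scaled by gene length and depth. The summed FPKM of the 3 genes was 42.3 ± 1.04 in PluriSIn#2 and 45.7 ± 0.612 in DMSO (SD, n = 3 each). Of this sum, Rbl1 made up 3.66%, 4.42% and 4.25% in the PluriSIn#2 libraries and 39.5%, 40.7% and 39.5% in the DMSO libraries. Rb1 made up 57.9% ± 0.680 in PluriSIn#2 and 35.4% ± 0.392 in DMSO, and Rbl2 38.0% ± 0.734 in PluriSIn#2 and 24.8% ± 0.538 in DMSO. In DMSO the p107 transcript had the highest FPKM of the 3, and in PluriSIn#2 the lowest. An exact two-sided permutation test gave p = 0.1 for each of 5 shares compared (adjusted p = 0.1), which is the smallest p that 3 against 3 libraries allow.

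The balance of Rb1 and Rbl2 to each other moved less. The FPKM of Rbl2 over that of Rb1 was 0.656, 0.637 and 0.676 in PluriSIn#2 and 0.719, 0.691 and 0.690 in DMSO. The groups were apart, though narrowly (exact two-sided permutation p = 0.1, the smallest possible). Against Rbl1, the FPKM ratio of Rb1 was 14.2 ± 1.49 in PluriSIn#2 and 0.888 ± 0.0230 in DMSO, and that of Rbl2 was 9.31 ± 1.03 in PluriSIn#2 and 0.621 ± 0.0232 in DMSO.

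**Figure D2:**
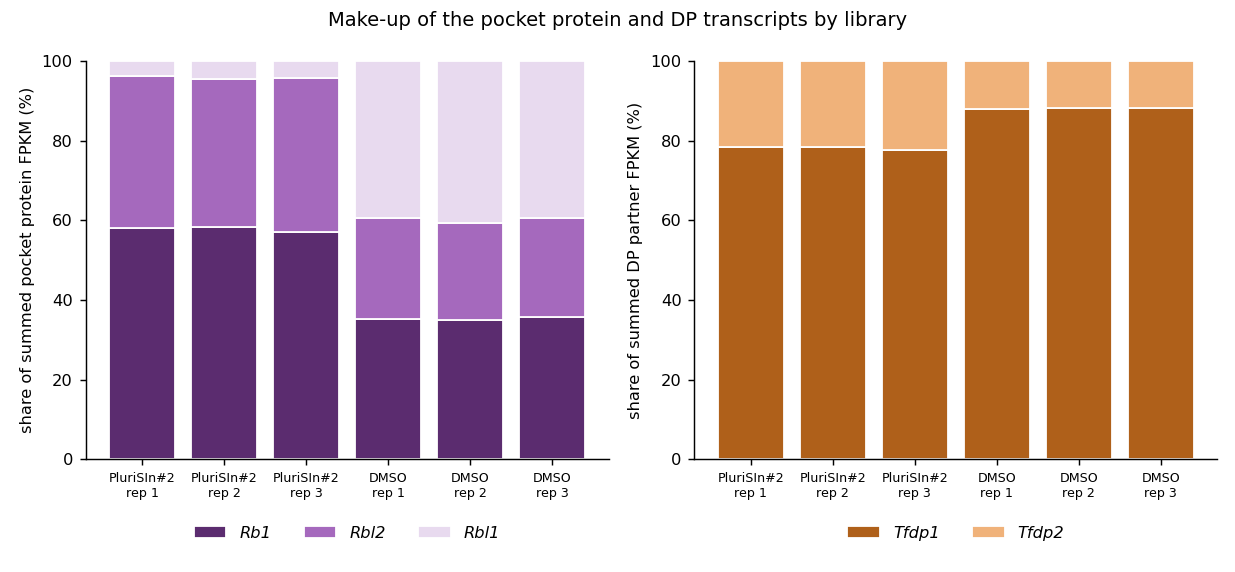
Share of each gene (vertical axis, percent) in the summed FPKM of the pocket proteins (left) and of the DP partners (right) in each of the 6 libraries, PluriSIn#2 left of DMSO. Rbl1 takes 3.66% to 4.42% of the pocket protein sum in PluriSIn#2 and 39.5% to 40.7% in DMSO, and Tfdp2 takes on average 21.9% of the DP sum in PluriSIn#2 and 11.8% in DMSO.

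Within the MuvB core the subunits parted. Lin9 and Lin54 fell most, Rbbp4 fell less, Lin37 was not called and Lin52 rose. Lin9, which encodes a subunit that MuvB needs to assemble, lies at 180641150 to 180690694 of chromosome 1 (plus strand). It was at 8.52, 7.84 and 9.08 CPM in PluriSIn#2 and at 31.5, 35.3 and 35.7 CPM in DMSO. Every treated library was below every DMSO library, and the means differed 4.03-fold (log2 fold change -2.01, SE 0.0835, edgeR adjusted p = 1.7e-38).

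Lin54, which encodes the subunit that contacts CHR letters in DNA, lies at 100441918 to 100500639 of chromosome 5 (minus strand). Its levels were 15.2, 15.4 and 16.6 CPM in PluriSIn#2 and 51.9, 56.3 and 58.7 CPM in DMSO. The groups were far apart, and Lin54 was 3.53-fold lower in PluriSIn#2 (log2 fold change -1.82, SE 0.0646, edgeR adjusted p = 1.62e-43). Among all genes tested, 3.80% had a lower log2 fold change than Lin9 and 4.48% a lower one than Lin54.

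Rbbp4, a histone-binding subunit that MuvB shares with several chromatin complexes, lies at 129307100 to 129335370 of chromosome 4 (minus strand). It stood at 234, 229 and 229 CPM in PluriSIn#2 and at 365, 386 and 374 CPM in DMSO. All treated libraries were lower, by a factor of 1.62 between the means (log2 fold change -0.70, SE 0.0262, edgeR adjusted p = 1.1e-41). Its exons share 782 bases with Sync on the opposite strand, which rose but had 59 reads or fewer in each library. Rbbp7, the close relative of Rbbp4, also fell (147 CPM in PluriSIn#2 and 294 CPM in DMSO, edgeR adjusted p = 2.59e-50). The part of reads that match both genes in these counts was not tested. The FPKM of Rbbp4 over that of Rbbp7 was 0.824 ± 0.0201 in PluriSIn#2 and 0.665 ± 0.0261 in DMSO.

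Lin52 was the MuvB gene that rose. It encodes the small subunit that docks MuvB to a pocket protein once the kinase DYRK1A has phosphorylated it, and it lies at 84451422 to 84546145 of chromosome 12 (plus strand). It was at 31.3, 30.1 and 31.1 CPM in PluriSIn#2 and at 17.0, 16.8 and 16.4 CPM in DMSO. The groups were clearly apart, with a factor of 1.84 between the means (log2 fold change 0.88, SE 0.0716, edgeR adjusted p = 5.19e-20), and 81.6% of genes tested had a lower log2 fold change. The promoter of Lin52 shown above holds E2F letters, as do those of Rbl1 and Tfdp1, both of which fell.

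Lin37, which encodes a subunit needed for repression by DREAM in mouse cells, lies at 30555441 to 30559838 of chromosome 7 (minus strand). It was at 13.8, 13.9 and 15.4 CPM in PluriSIn#2 and at 17.6, 15.1 and 15.04 CPM in DMSO. The highest treated library stood among the DMSO libraries, so the groups overlapped. Its log2 fold change of -0.15 had a 95% interval from -0.33 to 0.03 (edgeR adjusted p = 0.112), an interval that does not reach the changes of Lin9 or Lin54. Leaving out 1 library at a time gave adjusted p-values between 0.0511 and 0.469 in edgeR, with no call.

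Per length, the order of the MuvB subunits differed between the groups. Mean FPKM in PluriSIn#2 was 53.5 for Rbbp4, 14.4 for Lin52, 12.8 for Lin37, 3.44 for Lin54 and 2.69 for Lin9. In DMSO it was 82.5 for Rbbp4, 13.6 for Lin37, 11.6 for Lin54, 10.3 for Lin9 and 7.47 for Lin52. Lin52 had the lowest mean FPKM of the 10 genes in DMSO and the fifth highest in PluriSIn#2. The FPKM of Lin52 over that of Lin9 was 5.42, 5.66 and 5.05 in PluriSIn#2 and 0.795, 0.702 and 0.676 in DMSO. These groups were far apart (exact two-sided permutation p = 0.1, the smallest possible). The order between genes depends on the gene lengths behind the FPKM. In DMSO the implied length was 3222 bases for Lin9 and 2186 bases for Lin52, while their GENCODE M21 exons cover 7244 and 3110 bases. With those exon lengths the order of the genes was not tested, and Lin52 may not be the lowest in DMSO.

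**Figure D3:**
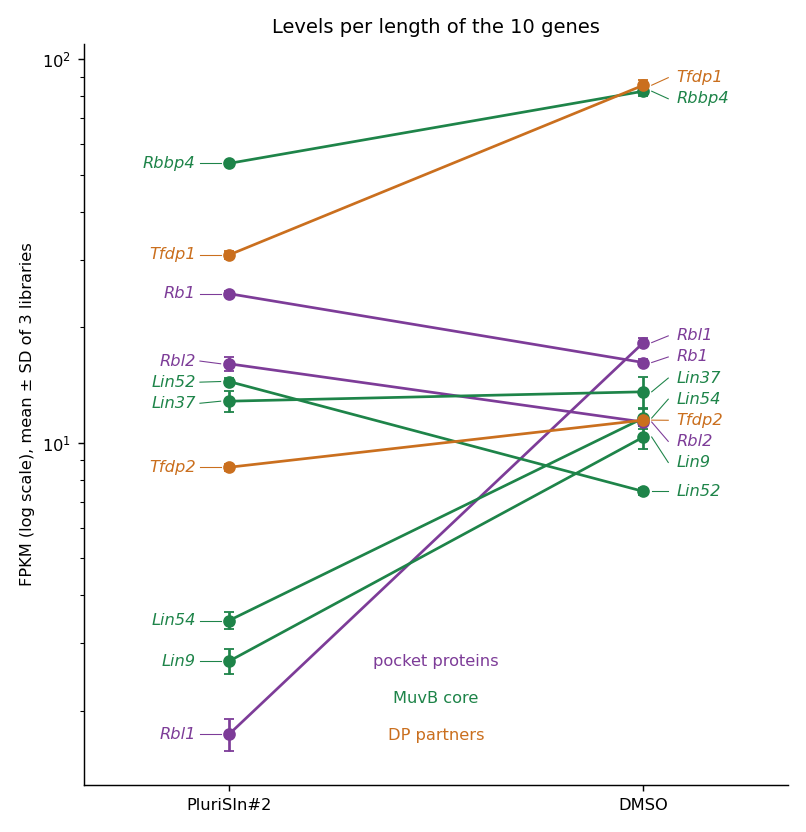
Mean FPKM (vertical axis, log scale) of the 10 genes in PluriSIn#2 (left) and DMSO (right), with the SD over 3 libraries and a line for each gene. The order between genes depends on the gene lengths behind the FPKM. By FPKM, Rbl1 is the lowest of the 10 in PluriSIn#2 (1.74) and the third highest in DMSO (18.2). Lin52 is by FPKM the fifth highest in PluriSIn#2 (14.4) and the lowest in DMSO (7.47). Per base of GENCODE M21 exons, Lin9 is the lowest in both groups.

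In PluriSIn#2 the FPKM ranges of all 9 neighbouring pairs in the order of the 10 genes were apart. In DMSO the ranges of Tfdp1 and Rbbp4 overlapped, as did those of Lin54 and Tfdp2 and those of Tfdp2 and Rbl2, so the order within these pairs is not larger than the spread between libraries. These ranges cover the spread between libraries alone. They do not cover the choice of gene lengths, so ranges that are apart do not fix the order of neighbouring genes.

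Both DP genes, whose products pair with E2F factors to bind DNA, fell. Tfdp1, at 13338751 to 13378448 of chromosome 8 (plus strand), was at 81.1, 78.1 and 78.0 CPM in PluriSIn#2 and at 221, 232 and 236 CPM in DMSO. No treated library came near a DMSO library, and Tfdp1 was 2.90-fold lower (log2 fold change -1.54, SE 0.0339, edgeR adjusted p = 2.69e-59). Tfdp2, at 96196275 to 96323646 of chromosome 9 (plus strand), was at 64.0, 61.9 and 64.6 CPM in PluriSIn#2 and at 87.1, 88.2 and 89.8 CPM in DMSO. It was 1.39-fold lower, also with no overlap (log2 fold change -0.48, SE 0.0419, edgeR adjusted p = 3.16e-18). The summed FPKM of both was 39.5 ± 0.808 in PluriSIn#2 and 96.9 ± 3.07 in DMSO, and the share of Tfdp2 in it was 21.9% ± 0.450 in PluriSIn#2 and 11.8% ± 0.225 in DMSO.

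**Figure D4:**
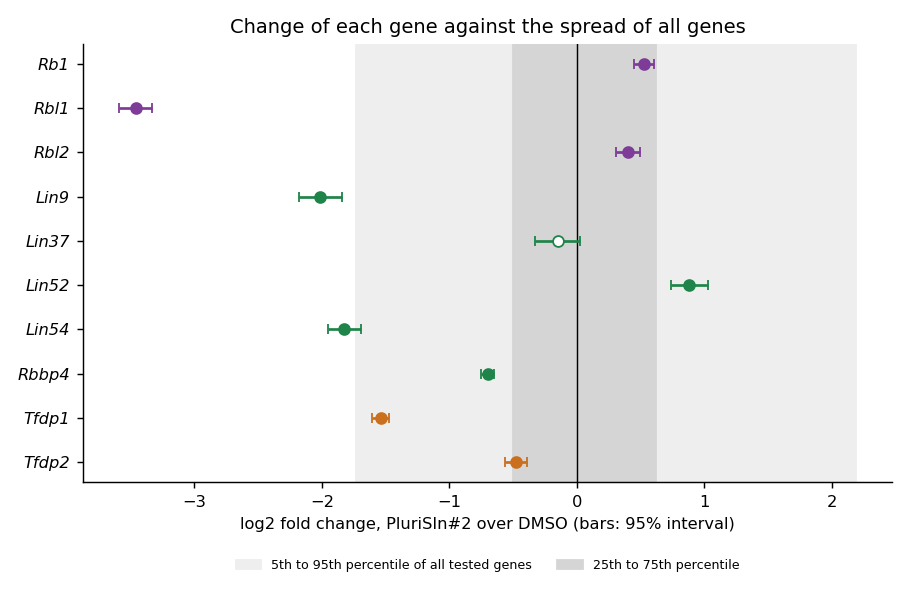
Log2 fold change of PluriSIn#2 over DMSO (horizontal axis) of the 10 genes with 95% intervals, coloured as pocket proteins (purple), MuvB core (green) and DP partners (orange), with an open point for the gene not called. Grey bands show the 5th to 95th and the 25th to 75th percentile of all genes tested, and Rbl1 (-3.46), Lin9 (-2.01) and Lin54 (-1.82) lie below the 5th percentile of -1.73.

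The E2F, MYB and FOXM1 factors fell by very different amounts. The list holds partners of pocket proteins or MuvB, and also Myb, E2f6, E2f7 and E2f8. Of these, E2f6, E2f7 and E2f8 act without pocket proteins, and Myb is listed as a relative of Mybl2. All 12 tested genes were lower, with a median log2 fold change of -3.06, beside 40.9% of all genes. The DREAM partner E2f4 averaged 49.6 ± 1.40 CPM in PluriSIn#2 and 61.0 ± 2.99 CPM in DMSO (log2 fold change -0.30), and its relative E2f5 averaged 26.5 ± 1.07 CPM in PluriSIn#2 and 44.1 ± 2.46 CPM in DMSO (-0.74). E2f6, a repressor, fell by 0.31 on the log2 scale. Of the activators bound by RB1, E2f3 fell by 1.43 on the log2 scale, E2f1 by 2.91 and E2f2 by 5.61.

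The largest falls of this list were in the atypical repressors. E2f8 averaged 0.490 ± 0.136 CPM in PluriSIn#2 and 74.6 ± 1.07 CPM in DMSO (log2 fold change -7.23), and its relative E2f7 had a log2 fold change of -6.73. Mybl2, the MuvB partner of dividing cells, averaged 2.11 ± 0.365 CPM in PluriSIn#2 and 56.6 ± 1.69 CPM in DMSO (-4.74). Foxm1, which joins MuvB at mitotic genes and was the most abundant of the list in DMSO, averaged 6.57 ± 0.148 CPM in PluriSIn#2 and 181 ± 3.12 CPM in DMSO (-4.79), and in PluriSIn#2 E2f6 was the most abundant, at 68.6 CPM. Per length, E2f4 stood at 24.99 FPKM and Mybl2 at 0.578 FPKM in PluriSIn#2, against 29.3 FPKM for E2f4 and 14.7 FPKM for Mybl2 in DMSO.

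Of 10 cyclins and kinases that act on pocket proteins or on LIN52, 9 fell and 1 rose (median log2 fold change -1.89). Among all genes tested 40.9% were lower and 41.7% higher. The cyclin gene Ccnd2, the most abundant, was the one that rose, at 2158 ± 14.99 CPM in PluriSIn#2 and 1899 ± 17.5 CPM in DMSO (0.18). Ccna2, the cyclin of S phase and mitotic entry, fell most (-6.88), and Cdk4 (-1.58), Cdk2 (-2.21) and Ccne1 (-2.72) also fell. Dyrk1a, whose product favours DREAM assembly, averaged 98.4 ± 2.54 CPM in PluriSIn#2 and 125.8 ± 3.31 CPM in DMSO (-0.36).

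The 7 genes of CDK inhibitors, which keep pocket proteins unphosphorylated, were divided, with 3 higher and 4 lower (median log2 fold change -0.73). These counts stand beside 41.7% of all genes higher and 40.9% lower. Cdkn1a, which encodes p21 and is a p53 target, averaged 1419 ± 2.66 CPM in PluriSIn#2 and 344 ± 4.82 CPM in DMSO (2.05). Cdkn2c, which encodes an inhibitor of CDK4 and CDK6, averaged 15.8 ± 0.565 CPM in PluriSIn#2 and 153 ± 6.55 CPM in DMSO (-3.28). The call of Cdkn1c (log2 fold change 0.26) was lost in 7 of the 16 other settings, PluriSIn#2 replicate 1 alone included.

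Of 14 tested corepressor genes of pocket proteins 10 fell, 2 rose and 2 were not called (median log2 fold change -0.32). Of all genes tested, 40.9% were lower and 41.7% higher. Sin3b, a scaffold of histone deacetylases, averaged 286 ± 8.20 CPM in PluriSIn#2 and 144 ± 3.57 CPM in DMSO (0.99), and the chromatin remodelling ATPase gene Smarca2 rose as well (0.97). Its relative Smarca4, the most abundant in DMSO, fell (-1.23), and the histone methyltransferase gene Suv39h1 fell most (-1.44).

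Among 19 tested genes of other complexes that contain RBBP4 or its relative, 13 fell, 4 rose and 2 were not called (median log2 fold change -0.57). The shares over all genes were 40.9% lower and 41.7% higher. Chaf1b, of the chromatin assembly factor that works behind replication forks, fell most, at 1.04 ± 0.165 CPM in PluriSIn#2 and 61.2 ± 1.83 CPM in DMSO (-5.87). Chd4, a NuRD remodeller and the most abundant, fell by 0.57 on the log2 scale. Ezh1, a Polycomb methyltransferase gene, rose (0.94), while its relative Ezh2 fell (-2.67).

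Targets of DREAM were described by 2 lists of 25 genes each, and the genes of both lists were called lower, beside 40.9% of all genes. The 25 early targets fell, with log2 fold changes between -5.74 (Cdc6, which loads the replicative helicase) and -0.38 (Msh6, of mismatch repair) and a median of -3.41. Rrm2, a ribonucleotide reductase gene and the most abundant of them in DMSO, averaged 28.1 ± 0.491 CPM in PluriSIn#2 and 515 ± 7.02 CPM in DMSO, and in PluriSIn#2 Msh6 was the most abundant, at 111.5 CPM. The 25 late targets fell too, with log2 fold changes between -7.86 (Bub1, a checkpoint kinase) and -4.56 (Kif20a, a mitotic kinesin) and a median of -6.07. The 6 lower genes of the 10, from Rbl1 (-3.46) to Tfdp2 (-0.48), all lay within this wide range of the early targets. All 10 genes lay above each late target, so neither position is particular to Rbl1. In all 17 settings 25 of 25 early and 25 of 25 late targets were called lower, with the limit given above for PluriSIn#2 replicate 1 alone.

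**Figure D5:**
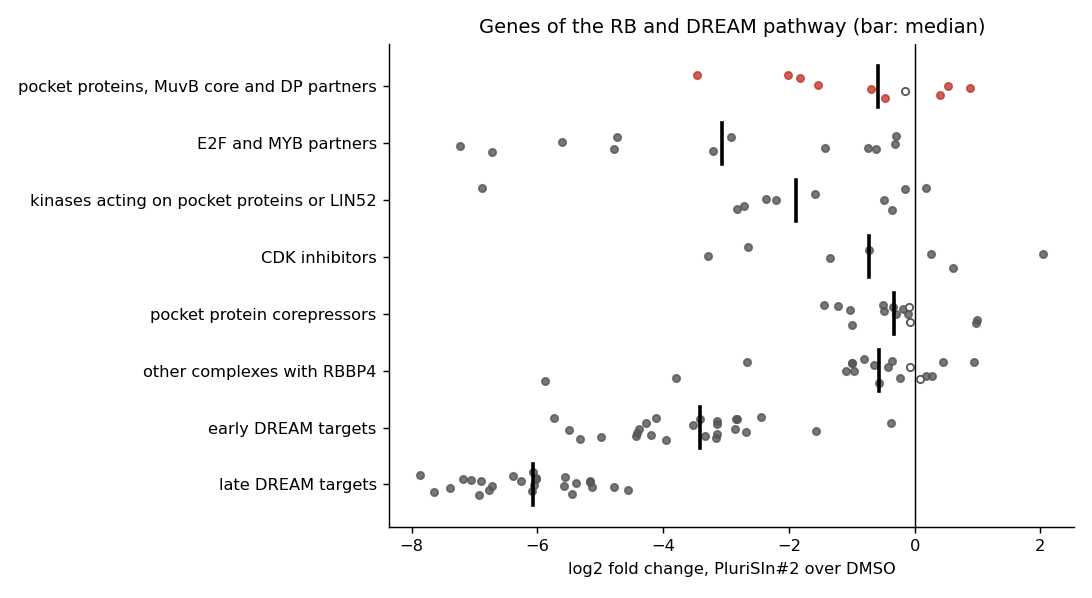
Log2 fold change of PluriSIn#2 over DMSO (horizontal axis) of the 10 genes (red, top) and of each tested gene of 7 lists of the same pathway (grey), with the median as a black bar and open points for genes not called. The 10 genes span -3.46 to 0.88, while the early targets lie at or below -0.38 and the late targets at or below -4.56.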

How the data were processed

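STAR, HTSeq and DESeq were used with build mm10, per the submitters' processing notes, with versions, annotation and strand setting not given in the sources used here. One table, as deposited, holds counts, whole-number reads per gene symbol, not normalized. The deposited FPKM were normalized by the authors for length and depth, beside the authors' log2 fold changes and p-values (raw and adjusted), per the file headers. In the FPKM file, 25 names that read as dates were not used. The treated columns are named P2.

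The count tests ran in edgeR 4.0.16 under R 4.3.3 (filterByExpr, TMM, glmQLFit, glmQLFTest, group as the only term, two-sided), leaving 14417 of 24421 genes. CPM use library totals times TMM factors, SE are the log2 fold change over the root of the F statistic, and means are ± SD over 3 libraries. Shares and ratios were tested by exact permutation over libraries. Alternatives used edgeR, DESeq2 1.42.0 and limma 3.58.1, the last on log2(FPKM + 1) or log2(FPKM + 0.1). The edgeR and DESeq2 steps were tested on simulated counts with the same spread setting for every gene. There limma was run on log2(CPM + 1), so its FPKM steps were not tested. Replicate pairs had chi-square values per degree of freedom of at least 1.56, so no library was counted as a copy. Genes are printed by a rule covering all 10 genes, all E2F genes, Mybl2, Foxm1, Dyrk1a, and the most abundant (over all libraries) and most changed members (mean of at least 5 CPM) of each list. The choice of further genes to name was made with their values in view, and members and lists were chosen with earlier results of these data known.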

Additional observations from a re-analysis of the deposited data

How the results depend on the processing

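For each of the 10 genes, 16 other settings (scaling, filter, DESeq2, limma on FPKM, the replicate block, each library left out, and PluriSIn#2 replicate 1 alone) kept the direction and the side of the threshold. The last of these has 1 treated library, assumed to vary like the DMSO libraries. Log2 fold changes ran from -3.63 to -2.81 for Rbl1, from 0.51 to 0.60 for Rb1, from 0.37 to 0.50 for Rbl2, from 0.86 to 0.95 for Lin52 and from -0.21 to -0.07 for Lin37. Each setting called 3 of the 10 higher and 6 lower. Genes called higher numbered 6015 in the main analysis, and library totals alone raised their share of the calls to 54.8%, from 50.5%. Same-numbered libraries did not deviate together (correlations of -0.014, -0.022 and 0.0054), and differently numbered ones had correlations between -0.021 and 0.035. Because libraries of a group differed little, this check cannot exclude a pairing. The replicate block called 5984 genes higher. Where FPKM was replaced by counts per exonic length of GENCODE M21, pocket protein shares in PluriSIn#2 were 64.4% for Rb1, 4.85% for Rbl1 and 30.7% for Rbl2, against 36.8%, 44.0% and 19.1% in DMSO, with the same directions. The cause was not tested. Leaving out 1 library gave shares of Rbl1 between 3.96% and 4.34% in PluriSIn#2 and between 39.5% and 40.1% in DMSO. The gene length implied by the authors' FPKM and counts for Rbl2 was 0.979 times as long in PluriSIn#2 as in DMSO. The counts of lists under each setting were an alternative chosen after seeing the data. They kept 12 of 12 E2F, MYB and FOXM1 factors lower, while the cyclins and kinases called lower numbered 8 to 9 and the corepressors called lower 8 to 11. With 3 libraries a group, intervals as wide as that of Lin37 leave small changes undetectable at this depth.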

Other observations

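Over all 6 libraries, the genes with the profiles nearest to each pocket protein gene were sought among 11414 genes averaging at least 5 CPM, by Euclidean distance between mean-centred log2 CPM. Nearest to Rbl1 were Mcm4, a subunit of the replicative helicase (distance 0.15 on the log2 scale), BC055324 (0.16) and Fancb, of the Fanconi anaemia pathway (0.21). Nearest to Rb1 were Chmp5 (0.023), Pitpnc1 (0.029) and Elovl5 (0.042), and nearest to Rbl2 were Robo2 (0.049), Aph1a (0.058) and Glis2 (0.067). All of these distances come from the same 6 libraries in 2 groups.

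In the authors' deposited table the log2 fold changes of the 10 genes were within 0.0072 of the edgeR values. For Rbl1 that table lists -3.47, for Lin52 0.88 and for Lin37 -0.16, the last with an adjusted p of 0.253.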
